A study of Mus musculus with 20 samples.

Results

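The comparison set alveolar macrophages of miR-155 knockout mice (KO) against those of wild-type mice (WT), with both genotypes exposed to cigarette smoke. It used the 10 smoke libraries, 5 per genotype, of the 20 in the series, chosen by the genotype and exposure that the labels give, and all 13225 genes of the deposited table. Differences are KO minus WT, so a positive value is higher in the knockout. WT mice were C57BL/6 and KO mice were of the strain B6.Cg-Mir155tm1.1Rsky/J, a germline allele carried by all cells, so the genotype was not restricted to macrophages. Exposure lasted 4 weeks, and the other 10 mice, 5 of each genotype, breathed air for the same time. From each mouse, lung cells that stained for the surface proteins CD45, Siglec-F and CD11c were sorted, and polyadenylated RNA was sequenced as 1 library per mouse. Levels are given as CPM, the reads of a gene scaled to the same library total, and differences as log2 with the standard error of limma, a linear model fitted to all genes. Genes are called where limma gave an adjusted p below 0.05.

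miR-155 is a small RNA cut from the transcript of its host gene, Mir155hg. It is induced in macrophages by inflammatory signals and lowers the stability and translation of messenger RNAs whose 3′ untranslated region (UTR) pairs with its seed, the bases near its 5′ end. Alveolar macrophages live in the airspaces, where they clear inhaled particles and surfactant lipid. With the miRNA gone, a direct target would be freed from this repression, and genes downstream of the targets could move either way.

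The mature miRNA lies at chr16:84714143-84714165 on the plus strand (GRCm38.p6, RefSeq), within Mir155hg at chr16:84703167-84715245. It is printed here with its seed, bases 2 to 8, in capitals, because the target sites further down pair with those letters.
miR-155-5p: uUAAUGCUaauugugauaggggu
Sites were searched on the transcript strand in the longest annotated 3′ UTR of each of 11486 genes (GENCODE M21, GRCm38). The full match is AGCATTAA, the complement of the seed followed by A, and 3.32% of the UTRs held it. A further 6.29% held AGCATTA as their best match, 4.82% GCATTAA and 8.27% GCATTA, and 77.3% held none. A match describes the letters only and does not show that the miRNA bound there. Below are sites of Inpp5d, Bach1 and Cebpb, widely reported targets of miR-155, and of Lepr, Kcnn3 and Gabbr1, which rose in KO smoke; the match is in capitals.
Inpp5d: tgtttttaaaaAGCATTAAagaaaac
Bach1: atgaacagtttAGCATTAAgggttaa
Cebpb: tttccgtttcgAGCATTAAagtgaag
Lepr: gaaatagtagaAGCATTAAaggacaa
Kcnn3: ccccactccagaAGCATTAcccatag
Gabbr1: tctccatttctcAGCATTAgaatctc
The capitals lie in the 3′ UTR on the plus strand at chr1:87719838-87719845 for Inpp5d, chr16:87732188-87732195 for Bach1 and chr2:167690366-167690373 for Cebpb. For Lepr they are at chr4:101813095-101813102, for Kcnn3 at chr3:89667402-89667408 and for Gabbr1 at chr17:37073391-37073397.

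In smoke, sorted KO cells held less mRNA for the matrix proteases Mmp12 and Mmp14 and the lipid desaturases Scd1 and Scd2. They also held less for apolipoprotein E and several cytokine genes. They held more mRNA for the leptin receptor Lepr, the GABA-B receptor subunit Gabbr1, the scaffold protein Iqgap2 and the lipid droplet protein Cidec. The calls of Mmp12 and Mmp14 were lost without WT smoke mouse IIb1, and the part of other cell types among the sorted cells was not tested. Limma called 209 of the 13225 genes, or 1.58%, of which 118 (0.892%) were higher in KO and 91 (0.688%) lower. Most differences were small: the called genes had a median absolute difference of 0.44 log2, and 40 of them differed at least 2-fold, 15 higher and 25 lower. The values of the 5 KO mice lay wholly above or below those of the 5 WT mice for 561 genes, or 4.24% of those tested, and for 161 of the 209 called. The median of all genes was -0.023 log2. An unadjusted p under 0.05 was reached by 1786 of the 13225 genes. That count and the share called, 1.58%, are the background for the gene lists below. The split between the directions depended on scaling: centring each library on its median gave 197 higher and 69 lower, whereas log2 of CPM plus 5 gave 131 and 164, voom weights 132 and 157, and a fit of the smoke libraries alone 147 and 187. The plot of level against difference shows all genes.

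**Figure D1:**
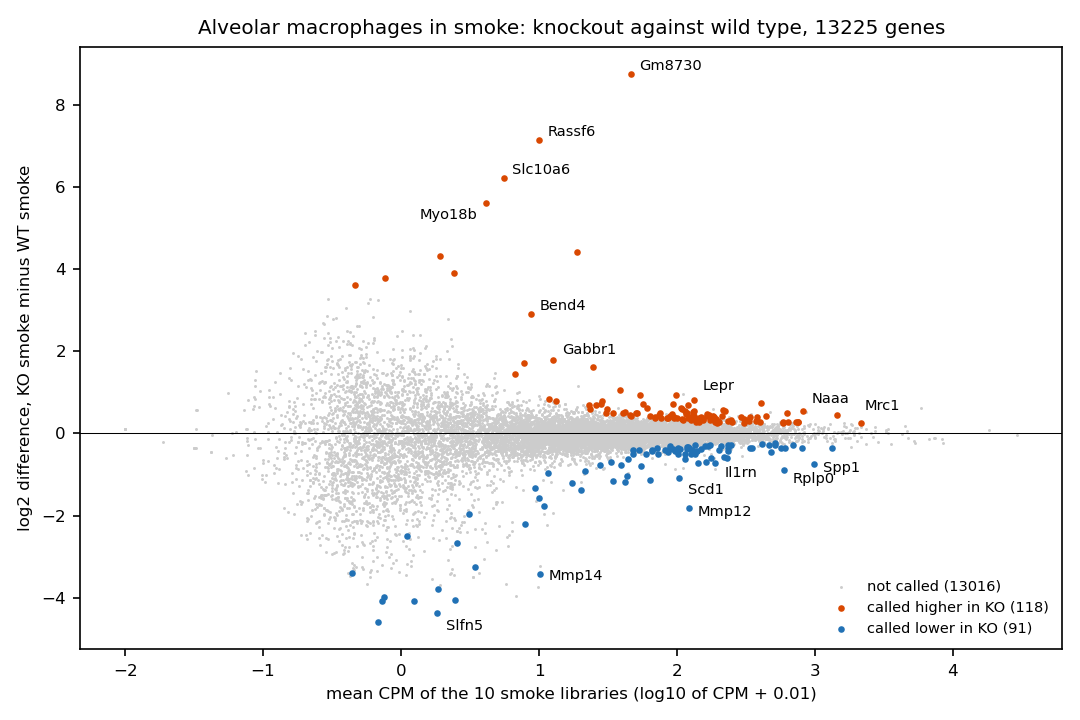
Each point is a gene, with its mean level over the 10 smoke libraries on the x axis (log10 of CPM + 0.01) and its log2 difference, KO minus WT in smoke, on the y axis. The 118 genes called higher (orange) and 91 called lower (blue) lie mostly within 1 log2 of 0 at high levels, and most of the largest decreases are in scarce transcripts.

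The smoke libraries held 7336133 to 11385515 reads, and the limit that a count of 0 allows, 3 reads, equalled 0.264 to 0.409 CPM. The KO smoke mouse IVa5 lacked reads for 1224 genes and the other smoke libraries for 259 to 832, and Gm42418 took 3.204% of the reads of KO smoke mouse IVb4, against 0.137% to 0.874% in the others. Without both of these mice, an alternative chosen after seeing the data, 80 genes were called, 55 higher and 25 lower, and 30 of the 67 called genes chosen by rule were no longer called. With 1 library left out, 88 were called without WT smoke mouse IIb1, 132 without IIb2, 138 without IVa5 or without IVb2, and 374 without IIa5. Of the 209 called genes, 83 (52 higher, 31 lower) kept their call with each of the 10 libraries left out in turn. The 25 measured identity genes of alveolar macrophages, with Siglecf and Itgax among them, summed to 40640 to 46990 CPM in WT smoke and 42430 to 47080 in KO smoke. Chil3 alone averaged 17680 CPM in WT smoke and 18680 in KO smoke, so the sum cannot show a small share of other cells.

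Markers of some other cells summed to less in KO smoke, though no such difference passed adjustment. The 12 measured marker genes, of 17 listed, of monocytes and interstitial macrophages summed to 129, 157, 220, 231 and 378 CPM in the WT smoke mice and to 107 to 141 in KO smoke (exact permutation p 0.0159, adjusted 0.0893 over 15 such sums and totals). The highest sum was that of WT smoke mouse IIb1. T and NK cell markers summed to 7.47 to 41.8 CPM in WT smoke and 0.642 to 7.25 in KO smoke (exact permutation p 0.00794, the smallest that 5 against 5 allows, adjusted 0.0893). Only 3 of the 15 listed T and NK genes were measured, Il7r, Cd4 and Lck. Dendritic cell markers summed to 341 to 485 CPM in WT smoke and 305 to 345 in KO smoke (exact permutation p 0.0238, adjusted 0.0893). In sorted bulk cells, fewer cells of a type and less RNA per cell cannot be told apart. Of the monocyte and interstitial macrophage genes, 11 of 12 were lower in KO smoke, with a median of -1.33 log2, and Apoe alone was called. The complement genes C1qa, C1qb and C1qc, which interstitial macrophages express, had 835, 823 and 569 reads over WT smoke and 86, 131 and 56 over KO smoke, with adjusted p of 0.0582, 0.148 and 0.0874. Limma called 0 of 8 dendritic, 6 neutrophil, 3 T and NK, 9 epithelial, 3 endothelial or stromal, 2 eosinophil and 1 B cell markers, with 2, 4, 2, 2, 2, 0 and 0 at an unadjusted p under 0.05. The part of these cells in the gene differences below was not tested.

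The targeted locus gave few reads. Mir155hg had 0, 2.34, 0.675, 0.429 and 1.82 CPM in the 5 WT smoke mice and 0.574, 0.219, 0, 0 and 0.113 in the KO smoke mice, from 48 and 8 reads in all. The groups overlapped, and the difference of -1.91 ± 1.18 log2 was not called (adjusted p 0.535). In air the KO mice IIIb1 and IIIb4 had 0.972 and 1.86 CPM. Which bases of the locus the allele removes is not given in the sources used here, and the mature miRNA is not read in these libraries, so the locus gives no check on the genotype.

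No reported target of miR-155 was called. Of 33 listed, 30 were measured and 0 were called by limma in either direction, against 1.58% of all genes. An unadjusted p under 0.05 was reached by 1786 of all 13225 genes and by 3 of the 30 targets. Their median was -0.022 log2, next to -0.023 for all genes, and 13 of the 30 were higher. The values of the KO and WT smoke mice overlapped for all 30, and the share with separate values over all genes was 4.24%. Of the 30, 14 had the full match AGCATTAA and 20 had that or AGCATTA. Inpp5d, which encodes the phosphatase SHIP1, differed by 0.01 ± 0.07 log2 (adjusted p 0.977), and Bach1, a repressor of heme oxygenase, by 0.15 ± 0.09 (0.474). The transcription factor genes Cebpb and Spi1 differed by -0.13 ± 0.10 (0.632) and -0.07 ± 0.07 (0.735). The lowest adjusted p belonged to Picalm, an adaptor of endocytosis, at 0.21 ± 0.07 (0.163). The cytokine brake Socs1 was too scarce to judge, at -1.17 ± 1.22 (0.766). Of the 13 genes of miRNA processing, such as Dicer1, Drosha and Ago2, limma called 0, with 2 at an unadjusted p under 0.05.

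Across all UTRs, genes with a seed match were called higher more often than lower. With the full match, 10 of 381 genes were called higher and 2 lower; with AGCATTA 10 of 722 higher and 0 lower; with GCATTAA 7 of 553 and 1; with GCATTA 16 of 950 and 7. Without a match 70 of 8880 were called higher and 81 lower. Median differences were 0.017, 0.012, 0.025, 0.018 and -0.037 log2 in the same order, and in air -0.047, -0.055, -0.068, -0.040 and -0.023. Genes with a match had longer transcripts, with a median of 4844 nucleotides for the full match and 3064 without one. Transcript length moved with the smoke difference, as described further down. With each library's trend on length removed, the full match had 6 calls higher and 1 lower and a median of -0.013, and genes without a match had 54 and 44 and a median of -0.0050. The genes with AGCATTA as best match then had 9 higher and 1 lower (median -0.0077), those with GCATTAA 2 and 1 (-0.00034) and those with GCATTA 10 and 2 (0.0012).

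Lepr, which encodes the receptor for leptin and carries the full match, had 101, 104, 94.8, 100 and 83.5 CPM in the WT smoke mice and 142, 183, 149, 190 and 183 in the KO smoke mice. All KO values lay above all WT values, and Lepr rose by 0.80 ± 0.11 log2 (adjusted p 3.49e-05). Kcnn3, a calcium-activated potassium channel, had 465.8 to 570 CPM in WT smoke and 698 to 822 in KO smoke, with no overlap, a difference of 0.50 ± 0.067 log2 (adjusted p 4.40e-05). Gabbr1 had 6.85, 3.90, 7.65, 7.18 and 3.31 CPM in WT smoke and 17.7, 24.0, 24.5, 12.2 and 19.7 in KO smoke, a rise of 1.79 ± 0.24 log2 (adjusted p 4.81e-05). In air these 3 genes were not called, at 0.34, 0.27 and 0.44 log2, and the difference between exposures was not called either, with adjusted p of 0.303, 0.414 and 0.166. The 3 calls kept their side of the threshold under all alternatives tried. Other called genes with the full match, chosen here after their values were seen, were Patj, a scaffold of cell polarity (0.70 ± 0.12, adjusted p 0.000879), and Flt1, a receptor for vascular endothelial growth factor (0.57 ± 0.11, 0.00397).

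Of 13 measured matrix proteases and inhibitors, 2 were called lower, Mmp12 and Mmp14, against 0.688% of all genes. Mmp12, macrophage elastase, at chr9:7344381-7369499, had 162, 58.8, 367, 126 and 247 CPM in the WT smoke mice and 66.6, 82.5, 18.1, 34.3 and 59.5 in the KO smoke mice. The ranges overlapped between WT smoke mouse IIa5, at 58.8, and 3 of the KO mice. Mmp12 fell by 1.81 ± 0.38 log2 (adjusted p 0.00923), from a mean of 192 to 52.2 CPM, and both smoke groups lay far above air, with 7.27 in WT and 6.61 in KO. Mmp14, a membrane-bound collagenase, had 11.8, 3.79, 55.9, 6.43 and 13.4 CPM in WT smoke and 2.18, 5.59, 0, 0.642 and 2.72 in KO smoke, a change of -3.41 ± 0.83 log2 (adjusted p 0.0270), with WT smoke mouse IIa5 below KO smoke mouse IVa4. WT smoke mouse IIb1 was highest for both, and without it neither was called, with adjusted p of 0.0586 for Mmp12 and 0.133 for Mmp14. The Mmp14 call was also lost without IVa5, IVb2, IIa1 or IIb3 (0.0582 to 0.0829). Without IVa5 and IVb4 together the adjusted p were 0.100 and 0.148. With a robust variance prior they were 0.0724 and 0.123, and with no mean trend in the variance 0.0837 and 0.142. Voom weights gave 0.112 for Mmp14. Of the 13 genes 0 were called higher and 4 were above 0, and the median was -0.23 log2 in smoke and -0.23 in air.

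Cytokine and chemokine genes had 4 of 24 members called lower and 0 higher, with a median of -0.63 log2, and 18 of the 24 were below 0. Over all genes 0.688% were called lower. Of the 24, 12 had an unadjusted p under 0.05. Il1rn, the antagonist that blocks the interleukin-1 receptor, had 263, 238, 319, 239 and 257 CPM in WT smoke and 192, 193, 177, 168 and 158 in KO smoke. Its ranges were separate, and it fell by 0.56 ± 0.075 log2 (adjusted p 3.49e-05), a call that held under all alternatives. In air Il1rn was at 265 and 254 CPM in WT and KO, and the difference between exposures had an adjusted p of 0.0897. Tnf, tumour necrosis factor, had 13.3, 16.4, 15.5, 13.7 and 16.9 CPM in WT smoke and 11.1, 9.201, 6.68, 7.25 and 5.66 in KO smoke, again without overlap. It fell by 0.95 ± 0.21 log2 (adjusted p 0.0113), and both smoke groups were below air, with means of 27.9 CPM in WT and 31.0 in KO. The Tnf call was lost with voom weights on the reads (adjusted p 0.0627) and without KO smoke mice IVa5 and IVb4 together (0.157).

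Spp1, which encodes the matrix protein osteopontin, had 1145, 788, 1945, 923 and 1506 CPM in WT smoke and 750, 888, 555, 696 and 735 in KO smoke. WT smoke mouse IIa5 overlapped KO smoke mouse IVa4, and Spp1 fell by 0.74 ± 0.15 log2 (adjusted p 0.00626), or with an adjusted p of 0.0930 without IVa5 and IVb4. The Spp1 call was also lost with a robust variance prior (0.0599) and with no mean trend in the variance (0.0741). The air means were 400.1 CPM in WT and 391.6 in KO. Spp1 also lies within the chromosome 5 span described below, and an overlapping model, Gm42793, could share its reads. Ccl17, a chemokine that draws T cells, had 9.81 to 20.2 CPM in WT smoke and 1.19 to 7.63 in KO smoke, a change of -1.76 ± 0.43 log2 (adjusted p 0.0280). Its call was lost without IVb2, IVb4, IIa1, IIb1, IIb2 or IIb3 in turn (0.0519 to 0.108) and with the length trend removed (0.0842). Cxcl16 (-1.19, adjusted p 0.0503), Ccl7 (-3.49, 0.0651) and Ccl2 (-2.73, 0.0802) were not called. Of the 14 NF-kB subunit and feedback genes and the 22 genes of Toll-like receptor signalling, limma called 0, with 1 and 4 at an unadjusted p under 0.05.

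Lipid genes split. Scd1, which makes monounsaturated fatty acids, had 161, 120, 135, 143 and 146 CPM in WT smoke and 58.4, 58.3, 73.6, 72.8 and 71.5 in KO smoke, without overlap. It fell by 1.08 ± 0.13 log2 (adjusted p 1.42e-05), to within the range of WT air, where the mice had 49.9 to 98.8 CPM. Its neighbour Scd2 fell by 0.71 ± 0.10 log2 (adjusted p 0.000101), from 197 to 288 CPM in WT smoke to 130 to 176 in KO smoke. An annotated Scd1 transcript matches Scd2 at 95.5% over 623 bases, so reads could be split between them. Both calls held under all alternatives. Apoe, a carrier of lipid that macrophages secrete, had 70.5, 26.6, 89.4, 40.8 and 72.0 CPM in WT smoke and 27.8, 23, 19.5, 24.5 and 25.9 in KO smoke. WT smoke mouse IIa5 lay inside the KO range, and Apoe fell by 1.19 ± 0.24 log2 (adjusted p 0.00754, and 0.0707 without IVa5 and IVb4). The Apoe call was also lost with a robust variance prior (0.0547) and with no mean trend in the variance (0.0738). Apoe is also a marker of interstitial macrophages in the list above.

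Cidec, which promotes the fusion of lipid droplets, went the other way, with 143, 166, 119, 132 and 135 CPM in WT smoke and 186, 178, 236, 197 and 169 in KO smoke. Its values were separate, and it rose by 0.48 ± 0.085 log2 (adjusted p 0.00199), with air means of 342 in WT and 370 in KO. Of the 25 lipid handling genes these 4 were called, 1 higher and 3 lower, against 1.58% of all genes, and the median was -0.09 log2. Pparg, the nuclear receptor that directs alveolar macrophage development, was at 0.40 ± 0.12 log2 and not called (adjusted p 0.0866). With the length trend removed Pparg was called (0.48, adjusted p 0.0385), and the lipid list had 3 calls higher and 3 lower. Of 24 lysosome, 22 cholesterol synthesis and 30 cell cycle genes, limma called 0. They had 9, 1 and 8 at an unadjusted p under 0.05, which 1786 of all 13225 genes reached. The plot of levels per mouse shows these genes beside the air groups.

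**Figure D2:**
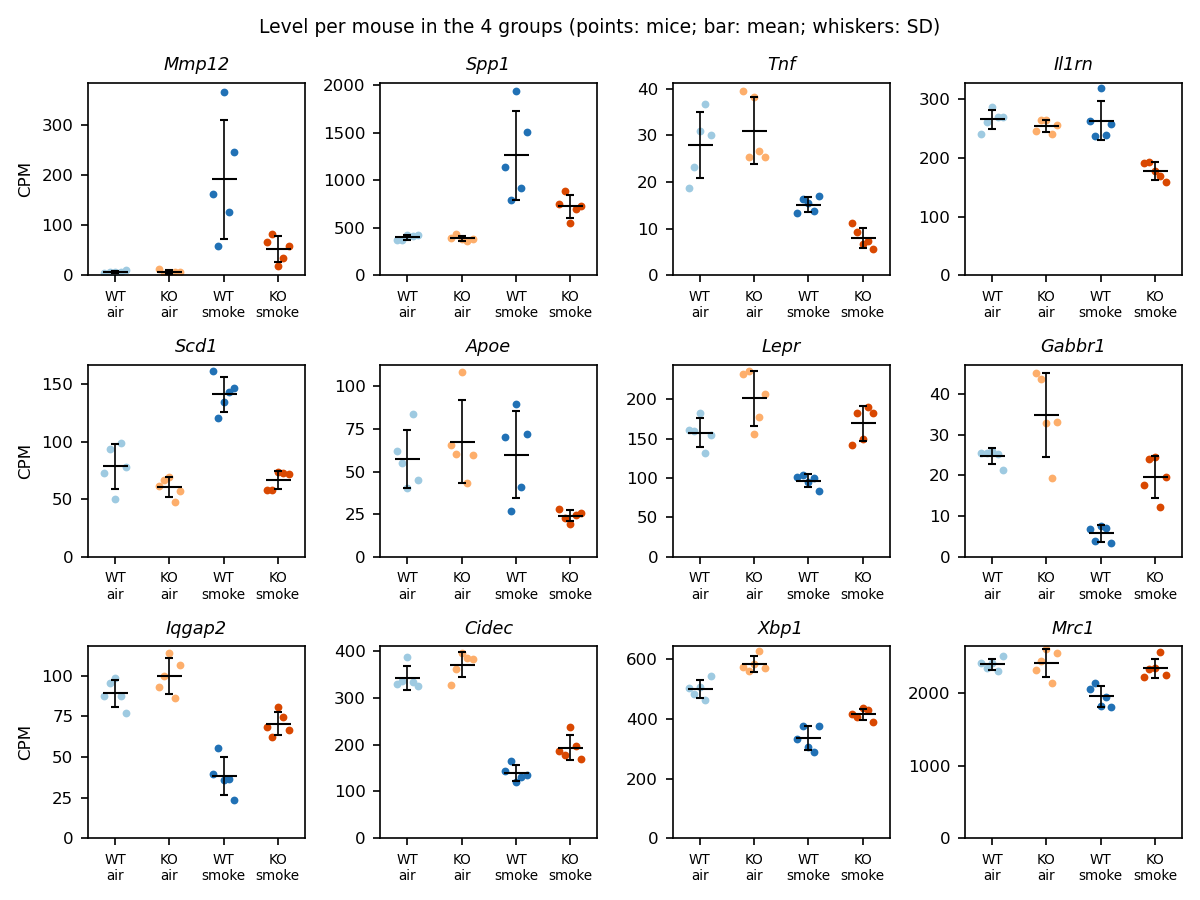
Each panel gives the CPM of a gene (y axis, from 0) in every mouse of the 4 groups, with the mean as a bar and the SD as whiskers (n = 5). In the top row and for Scd1 and Apoe the KO smoke mice are lower than WT smoke, with overlap for Mmp12, Spp1 and Apoe; for Lepr, Gabbr1, Iqgap2, Cidec, Xbp1 and Mrc1 they are higher without overlap.

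Identity genes of alveolar macrophages differed by at most 0.48 log2 in either direction. Of 25, Cidec and Mrc1, the mannose receptor, were called higher and Car4, a carbonic anhydrase, lower, with a median of 0.08 log2, 20 above 0 and 13 at an unadjusted p under 0.05. Over all genes 1.58% were called, and 1786 of 13225 had an unadjusted p under 0.05. With the length trend removed 5 were called higher and 0 lower, with a median of 0.14. Mrc1 had 1812 to 2142 CPM in WT smoke and 2217 to 2557 in KO smoke, a rise of 0.26 ± 0.066 log2 (adjusted p 0.0336). The Mrc1 call was lost without IVa4, IVa5, IVb2, IIb1, IIb2 or IIb3 in turn (0.0689 to 0.129) and with the length trend removed (0.0641). With Arg1, described below, Mrc1 was 1 of 2 called among 10 genes of alternative activation, against 1.58% of all genes. Those 10 had a median of -0.033 log2. Car4 had 1337 to 1590 CPM in WT smoke and 1050 to 1327 in KO smoke, and fell by 0.35 ± 0.090 log2 (adjusted p 0.0420). The Car4 call was lost without any 1 of 8 libraries, all but IVb2 and IIa5 (0.0696 to 0.120), and with the length trend removed (0.267). Air levels of Car4 were 525 in WT and 555 in KO. None of the 13 genes of the GM-CSF and PPARg axis was called by limma, with 3 at an unadjusted p under 0.05, and 1, Pparg, was called with the length trend removed.

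Some genes of interferon response and antigen presentation were called, against a share of 1.58% over all genes. Of 22 interferon response genes 20 were below 0, and Bst2 alone was called. The list median was -1.68 log2 in smoke and -0.36 in air. Some members were scarce and varied widely among the WT smoke mice. Rsad2 averaged 7.698 CPM there with an SD of 13.64, and Oasl2 10.7 with an SD of 15.97. Their KO smoke means were 1.14 and 0.7634 CPM. Other members varied less, such as Irf9, at 47.67 CPM with an SD of 9.406 in WT smoke. Whether the list median rests on few WT smoke mice was not tested. Bst2, the antiviral protein tetherin, had 47.7, 39.6, 73.6, 49.0 and 38.9 CPM in WT smoke and 30.6, 28.4, 37.6, 19.7 and 29.2 in KO smoke. It fell by 0.76 ± 0.18 log2 (adjusted p 0.0184), and the call was lost without IVb2 (0.0842) or IIb1 (0.103) and with the length trend removed (0.0927). Irf7, a transcription factor of the interferon response, was at -1.78 ± 0.52 log2 and not called (adjusted p 0.0787). Of the 10 MHC class II genes, H2-Eb1 was called lower, with a list median of -0.50. H2-Eb1 had 81.1, 41.0, 149, 67.8 and 104 CPM in WT smoke and 51.5, 33.7, 50.7, 26.0 and 30.9 in KO smoke. The ranges overlapped, and the change of -1.12 ± 0.28 log2 (adjusted p 0.0291) was lost without IVa4, IVb2, IVb4, IIa1, IIb1 or IIb3 in turn (0.0656 to 0.142) and with the length trend removed (0.0658). It was also lost with a robust variance prior (0.139) and with no mean trend in the variance (0.155). Of 16 MHC class I genes limma called 0, with 4 at an unadjusted p under 0.05.

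Some stress response genes were called, against a share of 1.58% over all genes. The unfolded protein response had 2 of 16 genes higher and 0 lower: Xbp1, its transcription factor, rose by 0.31 ± 0.068 log2 (adjusted p 0.0124) and Herpud1, a part of protein disposal at the endoplasmic reticulum, by 0.49 ± 0.13 (0.0477). Xbp1 had 332, 378, 307, 290 and 376 CPM in WT smoke and 416, 406, 438, 430 and 390 in KO smoke. The integrated stress response had 2 of 15 lower and 0 higher: its transcription factor Atf4 fell by 0.31 ± 0.074 log2 (adjusted p 0.0234) and the amino acid transporter subunit Slc3a2 by 0.41 ± 0.092 (0.0142). Without IIb1 the calls of Xbp1 (0.0616), Atf4 (0.111) and Slc3a2 (0.0726) were lost. Xbp1 was also lost without IIb2 (0.0571), Slc3a2 without IVb2 (0.0672) and Atf4 without IVa4, IVa5 or IVb4 (0.0560 to 0.0817) and with the length trend removed (0.133). The Herpud1 call was lost without any 1 of 8 libraries, all but IVa2 and IIb3 (0.0635 to 0.140).

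Of 24 genes of the NRF2 antioxidant response, with Nfe2l2, the gene of NRF2 itself, and Keap1 among them, 2 were called lower, against 0.688% of all genes. Nqo1, a quinone reductase, had 2.81, 4.79, 7.54, 5.04 and 4.06 CPM in WT smoke and 2.75, 0.986, 0.545, 0.826 and 1.58 in KO smoke, a fall of 1.95 ± 0.43 log2 (adjusted p 0.0138). Its lowest WT and highest KO values almost met, and the call was lost without IIb1 (0.0718). Prdx1, a peroxidase that has near-identical gene copies, fell by 0.35 ± 0.071 log2 (adjusted p 0.00721), with 853 to 1051 CPM in WT smoke and 649 to 777 in KO smoke. Without IVa5 and IVb4 together both calls were lost (0.0932 for Nqo1 and 0.0760 for Prdx1), and Prdx1 was at 0.0502 with no mean trend. The list median was -0.10 in smoke and -0.11 in air. Slc7a11 was called lower in air (-0.81, adjusted p 0.0256) and not in smoke (-0.59, 0.076). With the length trend removed 3 genes of the list were called lower in smoke, Slc7a11 among them (-0.70, 0.0384). Egr1, an immediate early transcription factor, had 8.47 to 21.7 CPM in WT smoke and 0.642 to 5.39 in KO smoke, a change of -2.21 ± 0.51 log2 (adjusted p 0.0182), lost without IVb2 (0.0740), IIb1 (0.0616) or IIb3 (0.0622). It was the only one of 18 immediate early and heat shock genes called.

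Some of the largest decreases were in scarce transcripts. Arg1, arginase 1, had 4.57, 0.891, 8.21, 1.29 and 2.14 CPM in WT smoke and 0.803, 0.219, 0, 0 and 0.226 in KO smoke, and was at 0 in all WT air mice. Its change was -3.79 ± 0.91 log2 (adjusted p 0.0252), lost without IVa5, IVb2, IIa1 or IIb1 (0.0750 to 0.121). Slfn5, an interferon-inducible gene, was highest in 1 mouse: IIb1 had 11.9 CPM and the other WT smoke mice 1.29 to 1.58, against 0 to 0.453 in KO smoke. Its change was -4.37 ± 1.07 log2 (adjusted p 0.0271), and the call was lost without IIb1 (0.133) and without IVa4, IVa5, IVb2, IIa1 or IIb2 (0.0508 to 0.0858). Dhrs9, a retinol dehydrogenase, had 1.82 to 7.54 CPM in WT smoke and 0 to 1.42 in KO smoke (-4.06 ± 0.99, adjusted p 0.0271), lost without IVa2, IVa5, IVb2, IIa1, IIb1 or IIb3 (0.0548 to 0.105). Bpifa1, a secreted airway protein, differed by -3.24 ± 0.83 (0.0367), lost without any 1 of 7 libraries, all but IVa5, IVb4 and IIa5 (0.0531 to 0.131), and with the length trend removed (0.0619).

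The decreases that follow kept their call with each smoke library left out in turn. The neighbours Abi3, an actin regulator, and Gngt2, a G protein subunit, fell by 1.21 ± 0.22 log2 (adjusted p 0.00230) and 0.71 ± 0.095 (3.49e-05). Without IVa5 and IVb4 together the Abi3 call was lost (0.0523). Their exons overlap on opposite strands, and the strand used in counting is not given in the sources used here, so their reads may be shared. Cldn1, a tight junction protein, had 9.66 to 18.8 CPM in WT smoke and 3.29 to 7.34 in KO smoke, a fall of 1.33 ± 0.29 log2 (adjusted p 0.0126), lost with voom weights (0.0978) and with no mean trend (0.0508). Among the increases, Iqgap2 had 39.5, 55.7, 35.8, 36.8 and 23.3 CPM in WT smoke and 68.6, 62.4, 80.4, 74.4 and 66.6 in KO smoke. It rose by 0.93 ± 0.14 log2 (adjusted p 0.000186) without overlap, and its air means were 89.3 and 99.8 CPM. Il12rb2, a chain of the interleukin-12 receptor whose exons overlap Serbp1 on the other strand, rose by 0.78 ± 0.16 log2 (adjusted p 0.00790, and 0.0523 without IVa5 and IVb4). Tcaf1, a partner of ion channels, rose by 0.62 ± 0.091 log2 (adjusted p 0.000141).

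A further 3 genes were called higher, with calls that did not hold with every smoke library left out in turn. Crim1, a transmembrane protein that binds bone morphogenetic proteins and whose exons overlap Fez2 on the other strand, rose by 1.45 ± 0.32 log2 (adjusted p 0.0131), lost without IVb2 (0.0594) or IIa1 (0.0532). Krt80, a keratin, rose by 0.83 ± 0.21 log2 (adjusted p 0.0343), lost without IVa5, IVb2, IIa1, IIb1 or IIb3 (0.0518 to 0.120). Parp16, an ADP-ribosyltransferase of the endoplasmic reticulum, rose by 0.78 ± 0.18 log2 (adjusted p 0.0201), lost without IVb2, IIb1, IIb2 or IIb3 (0.0548 to 0.0842).

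The genotype difference in air, from 10 other mice, was smaller in number. Limma called 55 genes in air, or 0.416%, with 20 higher and 35 lower. KO air mice IIIb2, IIIb3 and IIIb4 lacked reads for 1645, 1524 and 1451 genes. KO air mice IIIa5 and IIIb1 lacked reads for 392 and 950, and the WT air mice for 502 to 987. The part of these libraries in the smaller air count was not tested. Of the 209 smoke calls, 25 (11.96%) were also called in air in the same direction, which was 45.5% of the air calls, and 0 were called in opposite directions. Of the other 184, 138 had the same sign in air. The difference between the 2 genotype differences was itself tested for every gene: 0 were called at an adjusted p under 0.05, with 1302 at an unadjusted p under 0.05 and a lowest adjusted p of 0.0513, for Ube3a, a ubiquitin ligase. Without WT smoke mouse IIa5, 42 were called. Ube3a was called in smoke (0.45 ± 0.11 log2, adjusted p 0.0277) and stood at -0.42 in air. Of the 184 smoke calls not called in air, 128 had an unadjusted p under 0.05 in that test. Genes picked as called in smoke and not in air tend to have a low p there, so this count is a description. No gene named here was shown to differ between exposures after adjustment.

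**Figure D3:**
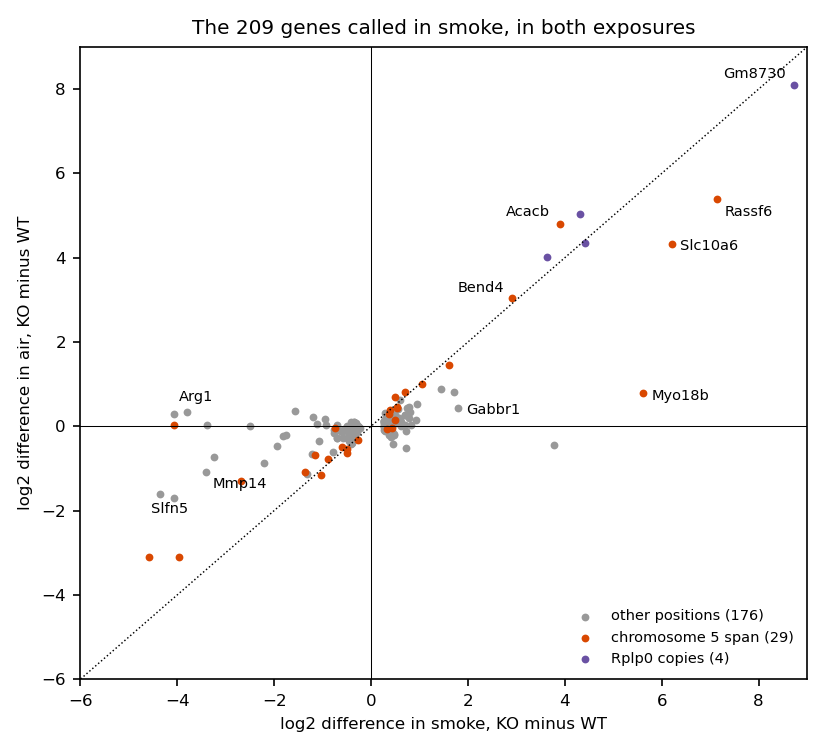
Each point is 1 of the 209 genes called in smoke, with its log2 difference, KO minus WT, in smoke (x axis) and in air (y axis); the dotted line marks equal values. Many of the 29 genes of the chromosome 5 span (orange) and the 4 Rplp0 copies (purple) lie near the line, and many of the other 176 (grey) lie near 0 in air.

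Of the 25 genes called in both exposures, 18 lie on chromosome 5. Chromosome 5 held 40 of the 209 smoke calls, 4.63% of its 864 tested genes, against 1.37% of 12298 genes on other chromosomes. The 18 genes bound a span, chr5:53466152-115622654 (GRCm38), from Rbpj to Gcn1l1, in which 29 of 288 genes (10.1%) were called in smoke, 16 higher and 13 lower. In the rest of the chromosome 11 of 576 (1.91%) were called. The span was drawn from these calls, so its share is a description. Mir155hg lies on chromosome 16, where 6 of 339 genes (1.77%) more than 10 Mb from it were called in smoke. Of the 57 genes within 10 Mb of it 3 (5.26%) were called, Usp25, Nrip1 and Runx1. The last of these are a nuclear receptor corepressor (Nrip1, 0.95 ± 0.18 log2, adjusted p 0.00498) and a transcription factor of blood cells (Runx1, 0.41 ± 0.090, 0.0138), both named after their values were seen. Usp25, a deubiquitinase, was called in both exposures, at -0.40 ± 0.078 log2 in smoke (adjusted p 0.00452) and -0.40 in air.

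**Figure D4:**
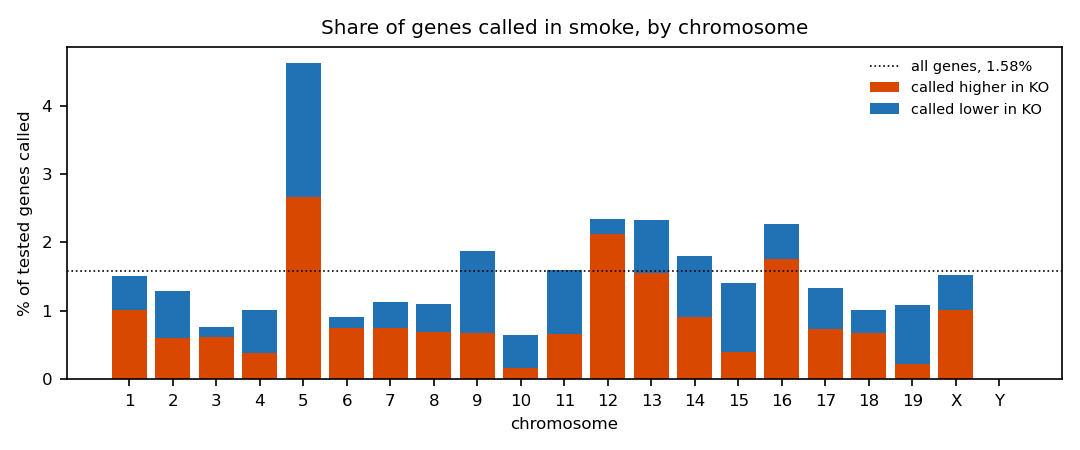
Bars give the percentage of tested genes called in smoke on each chromosome (y axis), split into higher (orange) and lower (blue) in KO, with the share over all genes, 1.58%, as a dotted line. Chromosome 5 stands at 4.63%, and the others at 2.34% or less.

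Several chromosome 5 genes were scarce or close to absent in the WT mice of both exposures, and were called higher in KO in both. Rassf6, a Ras association domain protein at chr5:90603076-90640657, had 0.264, 0.111, 0, 0 and 0.321 CPM in WT smoke and 18.5, 16.8, 20.5, 23.03 and 21.4 in KO smoke, a difference of 7.13 ± 0.49 log2 (adjusted p 3.02e-11). In air it stood at 0.449 to 0.718 CPM in WT and 20.3 to 33.8 in KO. Slc10a6, a transporter of sulfated steroids, had 7.91 to 13.8 CPM in KO smoke and at most 0.748 in WT smoke (6.21 ± 0.95, adjusted p 0.000247), and 0 to 2.93 in KO air. Acacb, the mitochondrial acetyl-CoA carboxylase, had 2.84 to 5.80 CPM in KO smoke and 0 to 0.891 in WT smoke (3.91 ± 0.78, adjusted p 0.00584, and 0.0619 without IVa5 and IVb4), close to the air values of 4.58 to 8.89 and 0 to 0.685. Bend4 had 10.3 to 19.5 CPM in KO smoke and 1.29 to 3.21 in WT smoke, 2.91 ± 0.43 log2 (adjusted p 0.000174).

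Myo18b, an unconventional myosin in the same span, differed from these. It had 9.75, 13.4, 5.32, 3.85 and 7.81 CPM in KO smoke and 0 to 0.787 in WT smoke, a difference of 5.62 ± 0.99 log2 (adjusted p 0.00178). In air both genotypes were near 0, with at most 0.225 CPM in WT and 0.920 in KO, and the test between exposures gave an adjusted p of 0.253. Outside the span on chromosome 5, Sdk1, a cell adhesion protein, rose by 1.72 ± 0.33 log2 (adjusted p 0.00429). Within it, Atp10d, a lipid-flipping ATPase, had 10.6 to 12.7 CPM in WT smoke and 27.3 to 44.4 in KO smoke, 1.61 ± 0.16 log2 (adjusted p 2.09e-07). Cdkl2, a kinase whose exons overlap Gm26582 on the other strand, rose by 1.06 ± 0.17 log2 (0.000333), and Naaa, an enzyme that breaks down N-acylethanolamine lipids, by 0.54 ± 0.062 (3.50e-06), from 611 to 688 CPM to 900.2 to 1031.

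Other genes of the span were lower. Rbpj, the DNA-binding factor of Notch signalling, had 30.9, 31.3, 26.9, 25.1 and 29.3 CPM in WT smoke and 11.5, 9.201, 6.82, 17.8 and 12.9 in KO smoke. It fell by 1.37 ± 0.20 log2 (adjusted p 0.000141) without overlap, and the copy Rbpj-ps3 matches it at 99.7%. Idua, a lysosomal enzyme that degrades glycosaminoglycans and whose exons overlap Dgkq on the other strand, fell by 1.04 ± 0.15 log2 (0.000125), Gltp, a glycolipid transfer protein, by 0.60 ± 0.069 (3.79e-06), and Crlf2, the receptor chain for thymic stromal lymphopoietin, by 1.17 ± 0.18 (0.000232). Stbd1, which binds glycogen, changed by -2.68 ± 0.54 log2 (adjusted p 0.00626). Crlf2 and Stbd1 were not called in air (-0.69, adjusted p 0.0798, and -1.30, 0.341). Tmem165, Pxn, Aff1 and Git2 were called in both exposures with smoke differences of -0.50, -0.50, 0.54 and 0.39, though Pxn had an adjusted p of 0.0785 without IVa5 and IVb4. Gcn1l1, a regulator of the integrated stress response kinase GCN2, was also called in both and rose by 0.71 ± 0.083 log2 (adjusted p 4.09e-06). The other calls in both, Scarb2 (-0.27, adjusted p 0.0458) and Ssh1 (0.49, 0.0271), did not hold with every library left out in turn. Scarb2 was lost without any 1 of 9 libraries, all but IVa2 (0.0721 to 0.120), and Ssh1 without IVa2, IVa4, IVb2, IIb1, IIb2 or IIb3 (0.0506 to 0.103) and with the length trend removed (0.0964).

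Rplp0, a ribosomal protein of the span, and its copies moved in opposite directions. Rplp0 had 763, 737, 783, 844 and 766 CPM in WT smoke and 435, 403, 447, 426 and 386 in KO smoke, a fall of 0.89 ± 0.057 log2 (adjusted p 7.44e-12). Gm8730, a processed copy on chromosome 8 that matches the Rplp0 transcript at 98.7% over 954 bases, had at most 0.337 CPM in WT smoke and 82.0 to 98.6 in KO smoke (8.74 ± 0.40, adjusted p 2.89e-15). Gm9625, on chromosome 13 and 97.4% identical, had 0.748 to 2.79 CPM in WT smoke and 34.2 to 39.0 in KO smoke, and Gm14165, on chromosome 2 and 97.2% identical, 0 to 0.225 and 1.47 to 5.597. Rplp0-ps1, 95.9% identical, had 1 WT smoke mouse with a read and 0.136 to 1.21 CPM in KO smoke. All 4 copies were called in air as well. Reads of such copies can be assigned to one another, so none of these 5 levels is certain.

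Off chromosomes 5 and 16, the genes called in both exposures other than these copies were Dab2, an endocytic adaptor, and Fcgr2b, the inhibitory IgG receptor. Dab2 rose by 0.28 ± 0.070 log2 (adjusted p 0.0333), lost without any 1 of 8 libraries, all but IVa2 and IIa5 (0.0504 to 0.115), and with the length trend removed (0.0791). Fcgr2b, which shares sequence with Fcgr3, fell by 0.42 ± 0.100 log2 (adjusted p 0.0235), lost without IVa5, IVb2, IIb1 or IIb3 (0.0691 to 0.0863), and its smoke values overlapped.

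Differences in smoke followed transcript length. The 8743 coding genes whose log2 CPM averaged 3 or more were divided by transcript length into 4 bins of near-equal size. The median difference was -0.11 log2 in the bin of shortest transcripts, then -0.032, 0.016 and 0.076 in the bin of longest. In air the same medians were -0.0060, -0.0090, -0.026 and -0.029. The shortest bin held 7 calls higher and 44 lower, and the longest 71 and 4. The slope of level on length, in log2 per doubling of length, was -0.108 to -0.0174 in WT smoke and -0.0254 to 0.0483 in KO smoke (exact permutation p 0.0238, adjusted 0.0893 over 15 values), and WT smoke mouse IIa5 alone lay in the KO range. With the trend of each library removed, 135 genes were called, 86 higher and 49 lower, and 119 of the 209 kept their call. The part of RNA quality in these slopes was not tested.

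**Figure D5:**
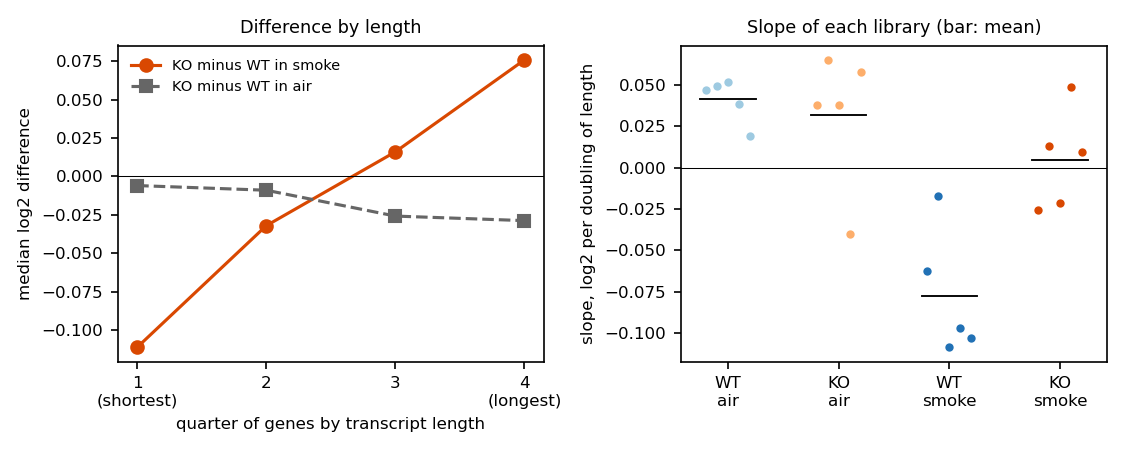
The left panel gives the median log2 difference, KO minus WT (y axis), of genes in 4 bins by transcript length (x axis), in smoke (orange) and in air (grey). The right panel gives the slope of level on length in each library (points, with the group mean as a bar): the WT smoke slopes run from -0.108 to -0.0174 and the KO smoke slopes from -0.0254 to 0.0483.

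Several gene families, most of them of short transcripts, had fewer calls with the trend removed. These families were chosen after their values were seen. Over all genes 0.688% were called lower and 0.892% higher. In the bin of shortest transcripts 44 of 2186 genes were called lower, with a median of -0.11 log2, and in the bin of longest 71 of 2184 were called higher. All 18 measured proteasome subunit genes (Psma, Psmb) were below 0, with 3 called lower and a median of -0.27 log2; with the trend removed 0 were called and the median was -0.15. Of 37 subunits of respiratory complex I 36 were below 0 and 1 was called, and of 31 genes of cytochrome c oxidase and ATP synthase 26 were below 0 and 3 were called; 0 of either remained called. Mitochondrial ribosomal proteins had 64 of 78 below 0 and 3 called lower, with 1, Mrpl52, called with the trend removed (-0.75, adjusted p 0.0108). Glycolysis had 4 of 18 called lower, Eno1, Ldha, Pkm and Pgk1, all with near-identical copies. With the trend removed 0 were called, and the median went from -0.24 to -0.19 log2; the family's median transcript length was 2795 nucleotides. The long Kmt2 histone methyltransferase genes had 3 of 5 called higher, Kmt2a, Kmt2c and Kmt2e, and 0 with the trend removed.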

How the data were processed

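Per the labels' protocols, alveolar macrophages were sorted from mouse lung and 25 ng of RNA entered a polyA-selecting library preparation. STAR 2.6.0c, limma and the build GRCm38.p6 are named per the submitters' processing notes. Neither the counting tool nor the annotation or low-count filter is given in the sources used here. Values of the deposited table are log2 CPM that the authors made by the voom formula (0.5 reads added to each count, 1 to the total). With it, all values gave whole reads within 0.001, so CPM and reads are those recovered. Floors cover counting error only.

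limma 3.58.1 (R 4.3.3) was fitted to the log2 CPM of all 20 libraries, with 1 coefficient for each group and moderated variances that follow the mean level. P values are 2-sided and adjusted by Benjamini-Hochberg over 13225 genes. Single values were compared by exact permutation tests, 2-sided, over the 10 smoke libraries. No mouse code recurs, so no pairing was used.

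The comparison, gene lists and rules were chosen with earlier results of these data known. Genes named are up to 15 called that rose most and 15 that fell most (groups separate, mean log2 CPM of at least 1 in a smoke group, no predicted names), up to 15 with the smallest p at a mean log2 CPM of at least 3, genes called in both exposures, up to 4 called members per list by p, and Mir155hg; other genes given with values were chosen after their values were seen. Counts of named genes include 1 gene that is not reported here. Gene positions, lengths and UTRs are GENCODE M21; 13162 of 13225 names were matched by symbol, and copies are blastn 2.17.0 matches of at least 95% over 500 bases. The length trend was a loess fit (span 0.5) over coding genes. Alternatives varied the variance prior, low-level filter, pseudocount, scaling, weights, covariate (letter in the mouse code), libraries and, chosen after seeing the data, the length trend and libraries that stand apart. Counts, exact tests and figures used scipy 1.17.1, pandas 2.3.3, matplotlib 3.10.9 and numpy 2.4.6 under Python 3.11.15.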

Additional observations from a re-analysis of the deposited data

Results flagged for a closer look

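In 164 groups of 5 smoke mice (named genes, marker sums and library measures), 18 had a highest or lowest mouse far from the other 4; chance alone would give about 1 in 20 groups. In WT smoke mouse IIb1, log2 CPM was 3.582 for Slfn5 (others 0.4222 to 0.7003), 6.141 for Idua (5.761 to 5.799), 5.729 for Tcaf1 (5.487 to 5.545) and, lower than the rest, 9.254 for Naaa (9.376 to 9.425). WT smoke mouse IIb2 was low for Atp10d at 3.415 (3.609 to 3.666) and had 0.8742% of its reads on Gm42418 (0.1418% to 0.1975%). WT smoke mouse IIb3 stood at -2.64 for Rplp0-ps1 (-4.509 to -4.152, all at 0 reads), at 9.214 for Dab2 (9.427 to 9.488) and at 232.2 CPM for the lung epithelium sum (179.7 to 187.2). WT smoke mouse IIa1 had the most reads, 11385515 or 1.139e+07.

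In KO smoke, mouse IVb2 was high for Parp16, at a log2 CPM of 4.434 (others 3.9 to 4.041), and low for Ccl17 at 0.3089 (2.365 to 2.945) and for Slc3a2 at 7.128 (7.468 to 7.587). Mouse IVa5 was low for Rplp0-ps1 at -2.29 (-0.036 to 0.333), and its lung epithelium sum was 208.1 CPM (167.8 to 179). Mouse IVb4 was low for Pxn at 6.493 (6.843 to 6.965) and had 3.204% of its reads on Gm42418 (0.1371% to 0.6039%). Mouse IVa2 had a B cell marker sum of 0.5738 CPM, against at most 0.1132 in the others.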

How the results depend on the processing

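Of the 67 named genes called, 32 kept their call under all alternatives that could be fitted, 42 kept it with each smoke library left out in turn, and 0 changed direction. The number of called genes also depended on the setting. Against 209 (118 higher, 91 lower), array weights gave 954 (448 and 506), smoke libraries alone 334 (187 lower), no mean trend in the variance 105 (57 and 48), and median centring 197 higher. Genes called lower numbered 153 with log2 of CPM plus 1, 164 with CPM plus 5 and 157 with voom weights. Of the alternatives chosen after seeing the data, removal of the length trend gave 135 (49 lower), leaving out KO air mice IIIb2, IIIb3 and IIIb4 gave 356 (179 lower), and leaving out KO smoke mice IVa5 and IVb4 gave 80 (55 and 25). With 1 smoke library left out the total ran from 88 to 374, with 57 to 205 higher and 31 to 169 lower. Genes whose genotype difference differed between exposures numbered 0 in the fit as reported. They numbered 1 with array weights, 2 with genes averaging a log2 CPM of 1 or more, with median centring and with a robust prior, 3 with no mean trend and with quantile normalization, 4 with CPM plus 1 and with genes averaging 3 or more, and 6 with CPM plus 5; with 1 library left out they ran from 0 to 42. The cause was not tested. A fit of the smoke libraries alone gives no such difference. Of the named calls, 30 were lost without IVa5 and IVb4 together, 25 with no mean trend, 24 without IIb1 and 19 without IVb2. Genes under 3 reads in a library, 0.264 to 0.409 CPM, are not resolved at this depth. No paired analysis was possible because each mouse code occurs once.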
